A study of Mus musculus with 6 samples.

Results

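This account covers the isoforms of 4 RNA-processing genes in mouse duodenal crypt organoids given BMP2: the SR splicing factors Srsf2 and Srsf3, the SR-like splicing factor Tra2b and the RNA editing enzyme gene Adar. The isoforms are those that the authors' deposited table of usage changes lists under these gene names. They number 6 of the 302 isoforms, and 4 of the 202 genes, in that table. The genes were chosen by the usage values of their listed isoforms in this comparison, so those values are given below as a description and not as a test.

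Organoids are cultures that crypt cells build from the small intestinal lining, and these were wild-type C57BL/6. One group of 3 libraries received vehicle and the other group of 3 received 100 ng/ml BMP2, a bone morphogenetic protein ligand, in both cases on day 6 and for 24 h. The labels do not say whether the libraries came from separate animals or cultures. The variation between libraries behind the authors' q-values may thus be technical, and the test that gave these q-values is not given. The values are the authors' means per condition. No replicate error comes with them, and library depth is unknown. The authors named the conditions WT_Batch1 and WT_BMP24h_Batch1, and what the batch label stands for is not given. That each mean covers the 3 libraries of its group was inferred from these names and the sample descriptions. Epithelial genes in the table include the claudin Cldn7, with an implied level of 663 TPM (transcript abundance relative to the library's total) with vehicle and 1233 TPM with BMP2, and the brush border genes Espn, at 31.5 and 144.1 TPM, and Mep1a, at 8.49 and 2.63 TPM. Markers of other cell types were not analysed here.

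SR proteins bind exonic sequences and help the spliceosome to choose splice sites. Many of their genes also make a transcript with a premature stop codon, through an extra exon (a poison exon) or an intron kept or spliced after the stop. Such transcripts are degraded by nonsense-mediated decay, and the SR protein itself can promote their formation, which holds its own level in check. Adar encodes an enzyme that converts adenosine to inosine in double-stranded RNA. It has a constitutive promoter, whose transcripts give a shorter nuclear protein, and an interferon-inducible promoter, whose transcripts give a longer protein.

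In the genes of all 3 splicing factors, the isoform that rose in use with BMP2 is annotated as a target of decay or as retaining an intron. Srsf3-201 rose from 22.5% to 40.4% of the gene's transcripts, Srsf2-203 from 13.0% to 24.8% and Tra2b-206 from 17.1% to 27.7%. The isoforms that fell are protein-coding: Srsf3-202 fell from 60.3% to 34.4%, Srsf2-201 from 64.1% to 40.5% and Adar-202 from 20.1% to 5.0%. Every isoform in the table is past a q of 0.05 and a usage difference of 0.1, so 100% of it is called. Usage rose for 45.0% and fell for 55.0%, beside 3 and 3 of the 6 here. At a q under 0.01 the table keeps 73.5% of its isoforms, and 5 of the 6 here. A difference over 0.2 keeps 50.7%, and 2 of the 6, and a mean TPM of at least 10 in both conditions keeps 18.2%, and 5 of the 6. The pattern was part of the reason these genes were chosen, and nothing is read from these shares.

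Among the sequences that set the splicing factor isoforms apart are those around the end of the reading frame. They were read by transcript identifier from the GENCODE M21 transcripts (GRCm38). For Srsf3, the last 30 bases of exon 3 are followed by the next exon of each model, with the stop codon in capitals.
Srsf3-201: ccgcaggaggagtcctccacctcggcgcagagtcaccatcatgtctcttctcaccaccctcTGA
Srsf3-202: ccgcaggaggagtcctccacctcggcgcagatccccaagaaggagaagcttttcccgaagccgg

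For Tra2b, the whole annotated reading frame of Tra2b-206 is set beside the same length of the protein-coding model Tra2b-204, which is not listed in the table. Capitals mark the start codon and, in Tra2b-206, the stop codon. The frames share their first 37 bases, and that of Tra2b-206 runs from 22265776 down to 22259181 on the minus strand of chromosome 16, over 2 exons.
Tra2b-206: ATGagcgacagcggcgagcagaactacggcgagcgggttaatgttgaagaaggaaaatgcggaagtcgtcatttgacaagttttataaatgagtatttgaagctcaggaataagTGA
Tra2b-204: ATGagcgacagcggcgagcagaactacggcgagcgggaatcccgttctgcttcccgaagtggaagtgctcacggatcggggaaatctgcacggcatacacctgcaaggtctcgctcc

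For Srsf2, the bases that end the reading frame of Srsf2-201 are also in Srsf2-203, which has no annotated coding sequence. The models part just after these bases. Capitals mark the stop codon of Srsf2-201 and the same bases in Srsf2-203. Srsf2-201 joins its last exon 7 bases after that codon, whereas Srsf2-203 runs on into the intron (chr11:116852001-116852050, minus strand).
Srsf2-201: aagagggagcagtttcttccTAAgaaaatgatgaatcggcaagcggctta
Srsf2-203: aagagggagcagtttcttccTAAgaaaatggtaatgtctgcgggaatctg

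**Figure D1:**
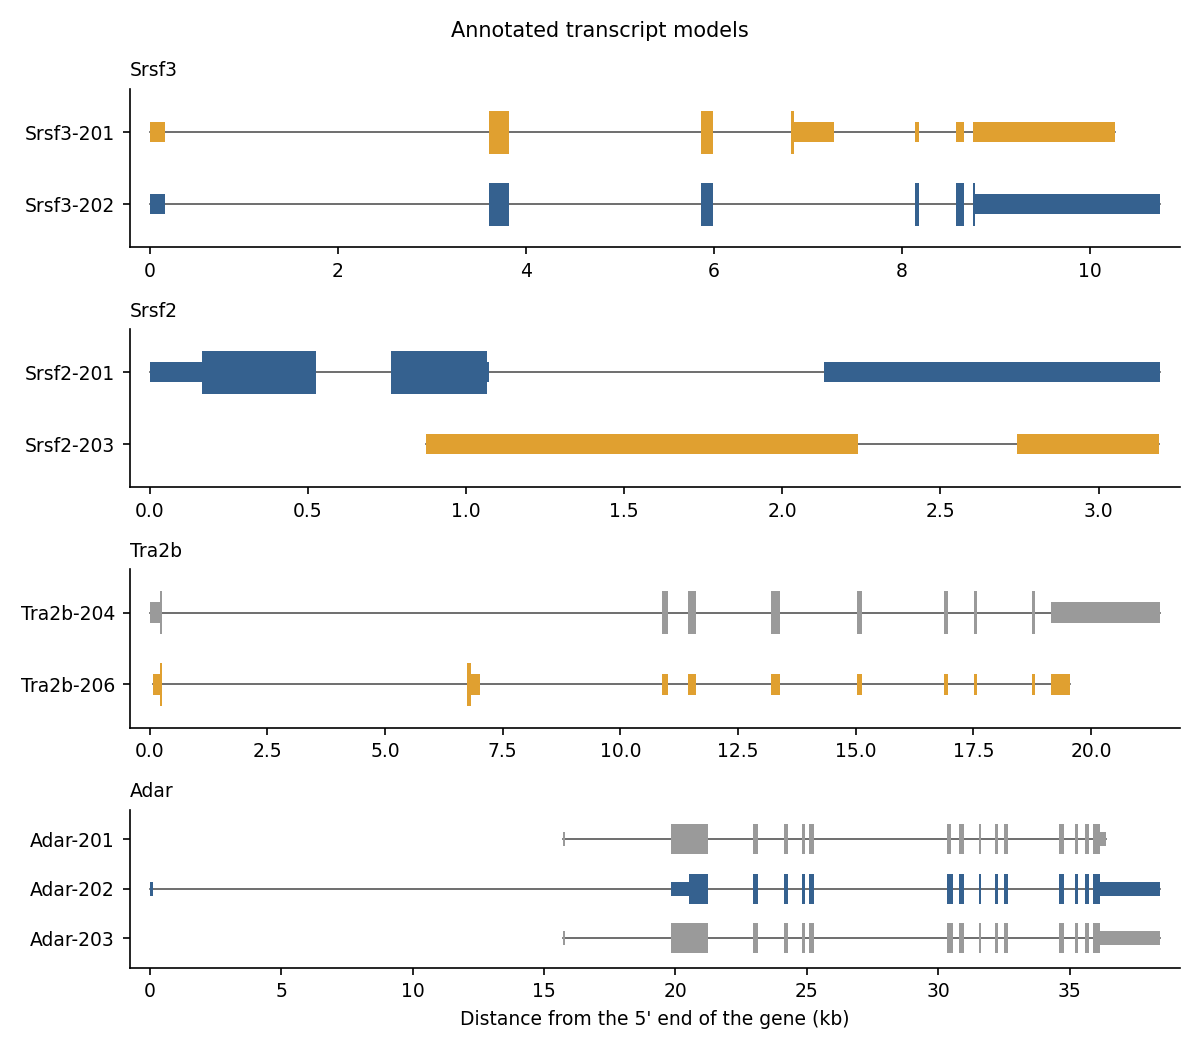
Exons of the 6 listed isoforms and of 3 unlisted protein-coding models, drawn to scale against distance from the 5′ end of each gene in kb. Tall boxes are coding, low boxes are noncoding, orange models gained and blue models lost usage with BMP2, and grey models are not in the table; coding ends inside the extra exon of Srsf3-201 and of Tra2b-206.

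Srsf3 encodes the smallest of the classical SR proteins (chromosome 17, 29032628 to 29043373, plus strand, GRCm38). Srsf3-202, with 164 codons in 6 exons, is the only protein-coding model among the 10 annotated for the gene. Srsf3-201 has an additional exon 4 of 456 bases (chromosome 17, 29039454 to 29039909), and its frame stops after 31 bases of that exon. The stop codon lies 548 bases before the last exon junction, with 3 junctions after it. In Srsf3-202 the stop codon lies in the last exon. The 2 models also differ at the 3′ end, which lies at 29043373 in Srsf3-202 and at 29042897 in Srsf3-201. Whether their usage values rest on the extra exon or on the 3′ ends was not tested.

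Mean abundance of Srsf3-202 was 68.4 TPM with vehicle and 17.4 TPM with BMP2, a ratio of 0.254. That of Srsf3-201 was 25.5 TPM with vehicle and 20.2 TPM with BMP2, a ratio of 0.792. The decay isoform was thus less abundant than the protein-coding isoform in vehicle and more abundant in BMP2. The ratio of Srsf3-201 to Srsf3-202 was 0.372 in vehicle and 1.16 in BMP2. The authors' deposited table gives q = 1.17e-10 for the usage of Srsf3-202 and q = 1.58e-05 for that of Srsf3-201.

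An implied level of the whole gene was taken as the TPM of its listed isoforms over their share of the gene, and what that leaves over is the abundance of all isoforms not listed. For Srsf3 the implied level was 113.4 TPM with vehicle and 50.2 TPM with BMP2, 2.26-fold lower. Isoforms not listed made up 19.5 TPM with vehicle and 12.6 TPM with BMP2. The difference in level was 63.2 TPM, of which the difference in Srsf3-202 was 80.8%. The gain in usage of Srsf3-201 came with a lower mean abundance of that isoform (ratio 0.792) and a much lower one of Srsf3-202 (ratio 0.254). No test across libraries was possible for levels or abundances. In bulk RNA, fewer cells of a type and less RNA per cell cannot be told apart.

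Srsf2 encodes an SR protein that promotes the inclusion of exons (chromosome 11, 116849901 to 116853094, minus strand, GRCm38). Srsf2-201 has 3 exons and 221 codons, and its last exon, wholly after the stop codon, includes an intron of 502 bases that other models splice out. Srsf2-203 is annotated without a coding sequence and starts inside the second exon of Srsf2-201. It keeps the 1059 bases from 116850962 to 116852020 on chromosome 11 and splices out the 502 bases instead. When the stop codon of Srsf2-201 is placed on Srsf2-203, it lies 1172 bases before the exon junction, against 7 bases in Srsf2-201. Of the 6 models of the gene, 1 holds the kept intron of 1059 bases whole.

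Mean abundance of Srsf2-201 was 102.4 TPM with vehicle and 43.4 TPM with BMP2, a ratio of 0.424. That of Srsf2-203 was 20.7 TPM with vehicle and 26.6 TPM with BMP2, a ratio of 1.29. Srsf2-203 is the only one of the 6 isoforms with a higher mean abundance in BMP2. In the whole table, mean abundance was lower in BMP2 for 54.0% of isoforms, beside 5 of the 6 here. The authors' deposited table gives q = 8.14e-13 for the usage of Srsf2-201 and q = 1.55e-13 for that of Srsf2-203.

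The implied level of Srsf2 was 159.7 TPM with vehicle and 107.2 TPM with BMP2, 1.49-fold lower. Isoforms not listed were at 36.6 TPM with vehicle and 37.2 TPM with BMP2, so the difference in level lay in Srsf2-201. The ratio of Srsf2-203 to Srsf2-201 was 0.202 in vehicle and 0.613 in BMP2, 3.04-fold higher, beside 3.12-fold higher for the ratio of Srsf3-201 to Srsf3-202. Exons of Mettl23 on the opposite strand share 450 bases (24.8%) of Srsf2-203 and 460 bases (24.2%) of Srsf2-201, and Mfsd11 shares a further 288 bases (15.2%) of Srsf2-201. Whether counting used strand is not given in the labels or files, so reads of these genes cannot be told apart from those of Srsf2 there. No exon of another gene overlaps the kept intron of 1059 bases.

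**Figure D2:**
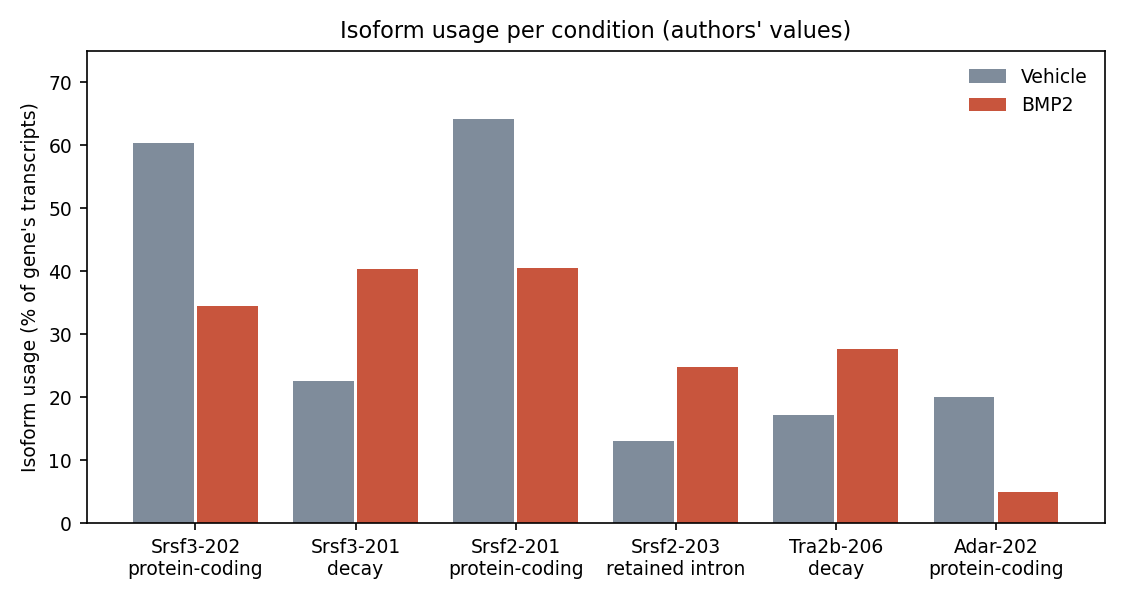
Usage of each listed isoform, as a percent of its gene's transcripts, in vehicle (grey) and BMP2 (red); bars are the authors' means per condition and have no error. The 3 protein-coding isoforms are lower in BMP2 and the decay and retained intron isoforms are higher, with Srsf3-201 above Srsf3-202 in BMP2 at 40.4% against 34.4%.

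Tra2b encodes an SR-like activator of splicing that binds GAA-rich exonic sequences (chromosome 16, 22244549 to 22266005, minus strand, GRCm38). The protein-coding model Tra2b-204 has 288 codons. Tra2b-206 has an additional exon 2 of 276 bases (chromosome 16, 22258986 to 22259261), and its annotated frame has 38 codons. The frame stops after 78 bases of that exon, 1015 bases before the last exon junction and with 8 junctions after it. The last exon of Tra2b-206 also ends nearer the 5′ end of the gene, at a distance of 19543 bases against 21456 for Tra2b-204.

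Mean abundance of Tra2b-206 was 18.2 TPM with vehicle and 15.0 TPM with BMP2, a ratio of 0.825. The implied level of Tra2b was 106.5 TPM with vehicle and 54.3 TPM with BMP2, 1.96-fold lower. All other isoforms of the gene together were at 88.3 TPM with vehicle and 39.3 TPM with BMP2, 2.25-fold lower. The rise in usage of Tra2b-206 thus came with a lower abundance of both the isoform and the rest of the gene. That the rest was lower by more follows from the gain in usage and is not a separate result. Which unlisted isoforms make up the rest was not analysed here. The usage change of Tra2b-206 has q = 0.0192 in the authors' deposited table and a difference of 10.6 percentage points, close to the smallest listed difference of 10.1 points (Pafah1b3-201 and Mfsd4a-201).

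The extra exons of Srsf3 and Tra2b share some sequence features. The genes were chosen for having unproductive isoforms, so a stop codon in the reading frame was given by that choice. Both are a multiple of 3 bases long, with 152 and 92 codons' worth of sequence. Both hold a stop codon in each of the 3 frames, with 5 stop codons in the reading frame in Srsf3 and 8 in Tra2b. Their GC content is 51.3% in Srsf3 and 32.6% in Tra2b. How many other exons of such lengths hold a stop codon in every frame, or are a multiple of 3 bases long, was not counted. The motif GAAGAA, the kind of sequence bound by the Tra2b protein, occurs 3 times on the sense strand of the Tra2b exon, overlapping matches counted, and 0 times on the other strand. It is held at least once by 22.0% of the 6185 internal exons of 249 to 303 bases in the annotation, and at least 3 times by 1.31%. In the Srsf3 exon it occurs 0 times on the sense strand and 1 time on the other, and 32.3% of 1760 exons of 411 to 501 bases hold it on the sense strand. The exons compared were chosen by length and not by GC content, so these shares do not allow for composition. A match is a run of letters and does not show binding.

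**Figure D3:**
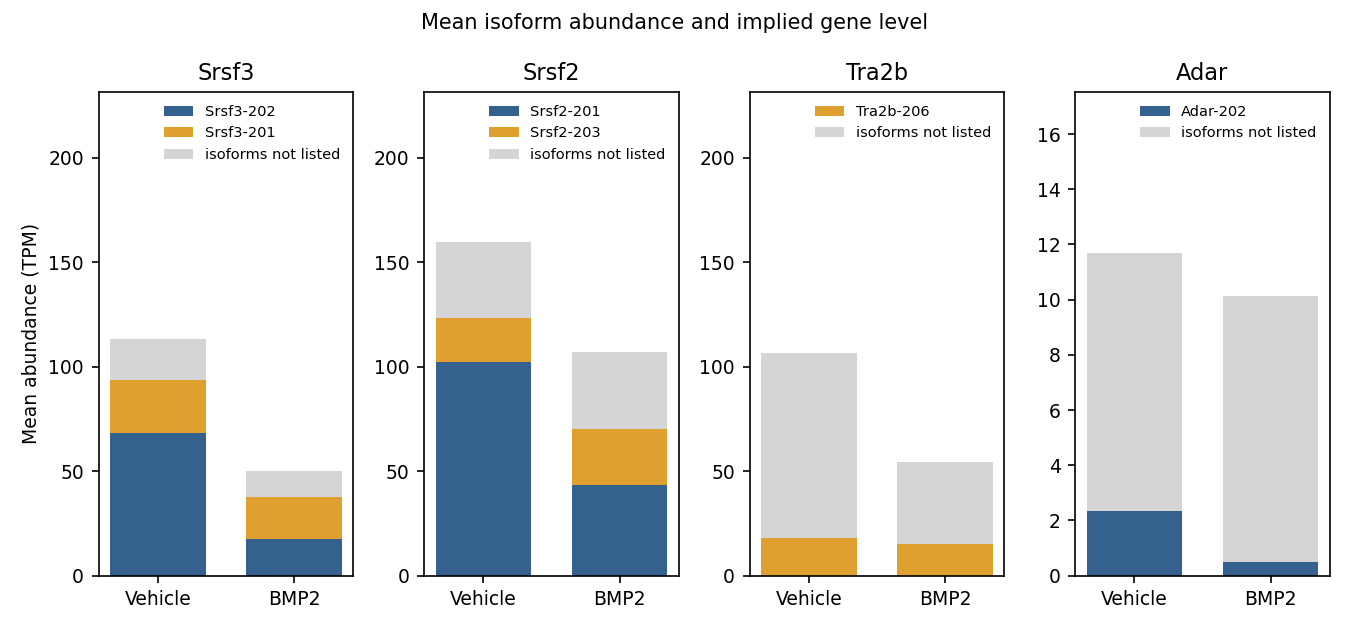
Mean abundance in TPM per condition for each gene, stacked by listed isoform (blue for a usage loss, orange for a usage gain) and isoforms not listed (grey); the full bar is the implied gene level, and the Adar panel has its own scale. The orange segments differ little between conditions (25.5 and 20.2 TPM for Srsf3-201), while the blue segments are much shorter in BMP2.

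By the way the implied level was computed, the log2 ratio of an isoform's usage is, apart from rounding, that of its abundance minus that of its gene. For Srsf3-201 usage was 0.84 higher on the log2 scale, made up of -0.34 for abundance and -1.18 for the gene level. For Tra2b-206 usage was 0.70 higher, from -0.28 for abundance and -0.97 for the gene. For Srsf2-203 it was 0.93 higher, from 0.36 and -0.57. The abundance of the 3 gained isoforms thus was between 0.792 and 1.29 times its vehicle value, while the gene levels were between 0.443 and 0.672 times theirs. In the protein-coding isoforms Srsf3-202 and Srsf2-201, the log2 abundance ratios were -1.98 and -1.24. These lie beyond those of their genes, as a loss of usage requires.

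The implied level was lower in BMP2 for all 4 genes, beside 52.8% of the 195 genes of the table with a level, and over 2-fold lower for Srsf3 alone, beside 31.8%. The median log2 ratio over those 195 genes was -0.12. In the table as a whole, 26 of the 36 isoforms annotated as decay targets or as retaining an intron rose in use (72.2%), as did 3 of the 3 listed here. Of those 26, 30.8% had a lower mean abundance in BMP2, as did Srsf3-201 and Tra2b-206, and among all 136 isoforms with a usage gain this share was 22.1%. Of the 235 protein-coding isoforms listed, 60.9% fell, as did Srsf3-202, Srsf2-201 and Adar-202. With 6 isoforms no difference from the rest of the table was tested.

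**Figure D4:**
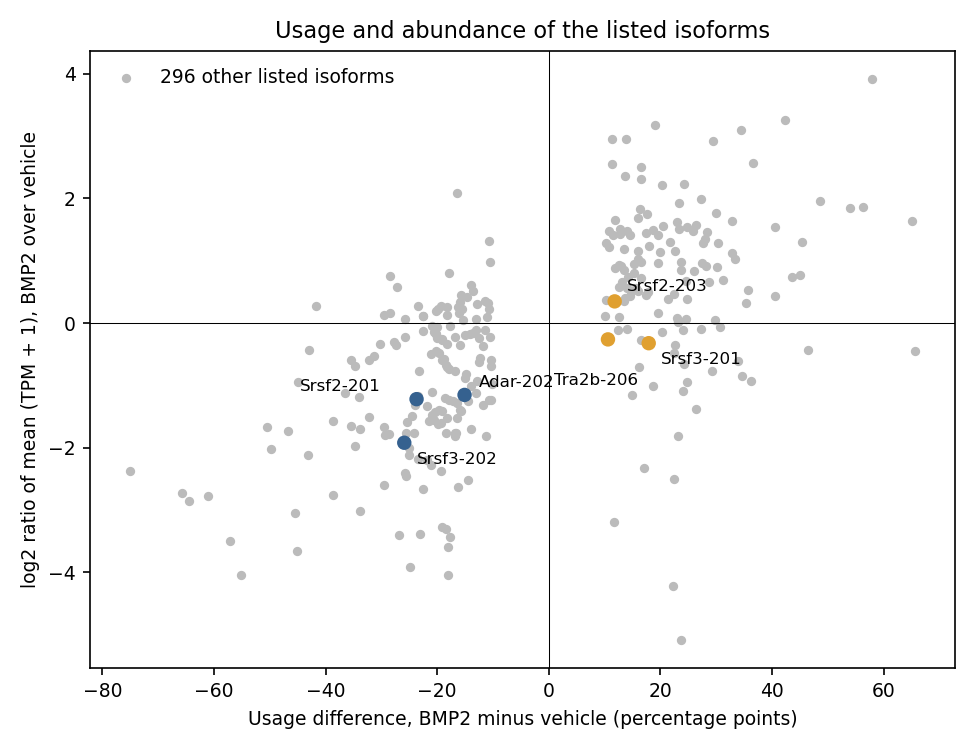
Usage difference in percentage points, BMP2 minus vehicle (x axis), against the log2 ratio of mean TPM plus 1 (y axis) for the 302 listed isoforms; grey points are the other 296, orange and blue points the 6 described here. The 3 gained isoforms lie between log2 abundance ratios of -0.32 and 0.35 and the 3 lost ones lie between -1.92 and -1.15.

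Adar (chromosome 3, 89715022 to 89753446, plus strand, GRCm38) differs from the splicing factors in having a protein-coding isoform as its only listed change. Adar-202 begins with a first exon of 129 bases (89715022 to 89715150), 15726 bases upstream of the first exon of Adar-201 and Adar-203. Its annotated frame starts in the second exon and has 930 codons, against 1178 in Adar-203, which shares 13 of its 14 exon junctions. The frames of Adar-202 and Adar-203 are thus the same but for 248 codons at the start, the part of the longer protein that includes the first Z-nucleic-acid binding domain. The first 60 bases of each frame, with the start codon in capitals, show the separate starts.
Adar-202: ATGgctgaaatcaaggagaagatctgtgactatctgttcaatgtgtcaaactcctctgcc
Adar-203: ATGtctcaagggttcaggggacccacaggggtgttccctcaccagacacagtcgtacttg

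Adar-202 and Adar-203 also share an extension of exon 7 by 78 bases (chr3:89745524-89745601, plus strand), or 26 codons, that Adar-201 lacks, and it is shown because it is the other coding difference among these models.
Exon 7 extension: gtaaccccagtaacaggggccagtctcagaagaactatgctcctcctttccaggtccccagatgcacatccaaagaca

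Usage of Adar-202 fell from 20.1% to 5.0% (authors' deposited table, q = 0.00121). Its mean abundance was 2.35 TPM with vehicle and 0.507 TPM with BMP2, a ratio of 0.216. The size of this difference depends on the scale at such low abundance: the log2 ratio was -2.21 without a pseudocount and -1.15 with a pseudocount of 1, where it is the smallest of the 3 losses (-1.22 for Srsf2-201 and -1.92 for Srsf3-202). The abundance is low: Adar-202 ranks 277 of 302 by mean TPM over both conditions, whereas the splicing factor isoforms rank between 11 (Srsf2-201) and 53 (Tra2b-206). The implied level of Adar was 11.7 TPM with vehicle and 10.1 TPM with BMP2, 1.15-fold lower. Isoforms not listed were at 9.33 TPM with vehicle and 9.63 TPM with BMP2, so the difference in Adar-202, 1.84 TPM, was larger than that in the whole gene, 1.54 TPM. The unlisted share, the complement of Adar-202, was 79.9% with vehicle and 95.0% with BMP2. Which of the other 8 models it holds was not analysed here, and the values do not show a change in the longer form.

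No base of Adar-202 is outside the other models of the gene, and 1 of its 14 exon junctions, the first, is found in no other model. How reads were divided between overlapping models thus sets its value. Exons of Chrnb2 on the opposite strand share 1365 of its 5909 bases (23.1%). For the splicing factors, Tra2b-206 has 0 bases and 1 junction of its own, Srsf3-201 has 0 and 0, and Srsf2-203 has 874 bases and 0 junctions. Of the lost isoforms, Srsf3-202 has 480 bases and 0 junctions of its own, and Srsf2-201 has 527 bases and 0 junctions. Exons of other genes overlap none of the bases of Srsf3-201, Srsf3-202 and Tra2b-206.

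The promoters of Adar bear on its first exons. RefSeq promoter windows (250 bases before to 50 after a start site, GRCm38.p6) were found for all 4 genes: 3 for Adar and 1 each for Srsf2, Srsf3 and Tra2b. One Adar window has its start site at the first base of Adar-202, and another lies 30 bases before the start of Adar-201. The letters GAAANNGAA, a core of the interferon-stimulated response element, were searched on both strands, a choice made after these sequences were seen. They occur in 8.56% of all 32851 windows. Among the Adar windows they occur in the one at Adar-201, 2 times on the plus strand, and they were not found in those at the Adar-202 start or in the windows of the 3 splicing factors. The stretches with the matches in capitals lie at chr3:89730468-89730497 and chr3:89730733-89730762 on the plus strand.
Match 1: gGAAAAGGAActtcctcacagggcggagag
Match 2: aagccttttcaaggaaacGAAAGTGAActc

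The second match begins 33 bases after the RefSeq start site and 3 bases after the start of Adar-201. These are runs of letters, and no measure of factor binding was used.

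Other RNA-processing genes were looked up in 7 gene lists, which do not cover the whole machinery. Of 21 SR and SR-like factors the table lists 3 (Srsf2, Srsf3 and Tra2b, with 3 isoforms higher and 2 lower), and of 11 RNA editing genes it lists 1, Adar, with 1 isoform lower. It lists 0 of 10 SR protein kinases and import genes, 0 of 40 hnRNP and other splicing regulators and 0 of 37 core spliceosome genes. It also lists 0 of 18 genes of nonsense-mediated decay and the exon junction complex, and 0 of 12 genes of double-stranded RNA sensing and the interferon response. The table holds called isoforms only, so usage and levels of the other genes on these lists were not analysed here.

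RNA-processing genes outside these lists are also in the table, and 3 of them, chosen after their values were seen, are given here. In Lsm4, a core protein of the U6 snRNP, the protein-coding Lsm4-201 fell from 90.2% to 72.3% and the retained intron isoform Lsm4-203 rose from 5.9% to 23.4% (authors' deposited table, q = 3.36e-11 for the loss, q = 0.00612 for the gain). In Clasrp, which encodes an SR-related protein, the protein-coding Clasrp-201 fell from 38.6% to 18.9% and the decay isoform Clasrp-209 rose from 9.2% to 22.6% (authors' deposited table, q = 6.43e-06 for the loss, q = 0.0142 for the gain). The gained isoforms had a mean abundance of 7.54 TPM with vehicle and 22.3 TPM with BMP2 for Lsm4-203, and 1.29 and 4.25 TPM for Clasrp-209. In Ncbp2, a subunit of the nuclear cap-binding complex, Ncbp2-201 fell from 77.4% to 48.0% (authors' deposited table, q = 0.0130). A listed loss of a protein-coding isoform beside a listed gain of a decay or retained intron isoform was thus not limited to Srsf2 and Srsf3. Nor was it limited to RNA-processing genes. In Psmg3 the differences were -20.4 points for Psmg3-201 and 27.7 points for Psmg3-203, and in Bcat2 -49.7 points for Bcat2-201 and 32.8 points for Bcat2-205. How many genes of the table show it was not counted. For Tra2b only the gained decay isoform is listed, so no loss of a protein-coding isoform is shown there.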

How the data were processed

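Per the submitters' processing notes, kallisto 0.46.1 was used and mm39 is the build. Column names match IsoformSwitchAnalyzeR. Which annotation release, statistical test, filters and strand mode were used: not given in the sources used here. Isoform fractions, their difference, the q-value of each usage change, a rank score and mean TPM values per condition were computed by the authors, per the file headers. TPM keeps no trace of depth. Only condition means were analysed, so no spread, pairing or library-level test was computed, and the planned test fell back on the authors' q-values.

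Usage is 100 times the fraction. Isoforms were matched by stable identifier to GENCODE M21 (GRCm38), with versions 1 step lower than in the table, so ends may differ slightly. Coordinates are 1-based and none was converted. The 50-base rule for a premature stop, promoter windows from RefSeq and motif searches were computed with Python 3.11.15 and pandas 2.3.3. The implied level was computed on simulated data for 202 genes, with a median absolute error of 0.000969 (log2). The simulated TPM was the level times the fraction, without noise or replicates, so this error comes from rounding alone. It does not show how the level behaves when fractions and TPM are averaged separately over libraries. The genes, the lists and the alternatives were chosen with earlier results of these data known. The genes named are the 4 members and any gene of the 7 lists found in the table. Lsm4, Clasrp and Ncbp2, outside the lists, were added after their values were seen. The settings varied were a q of 0.01, a usage difference above 0.2, a mean TPM of 10 or more, a pseudocount of 1, single isoforms for the level and the stop codon rule. Limits from overlap with other genes, from rounding and from a borrowed stop codon were added after the data were seen.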

Additional observations from a re-analysis of the deposited data

How the results depend on the processing

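Of the 6 listed isoforms, 5 were left at a q under 0.01 (Tra2b-206 was lost) and 5 with a mean TPM of 10 or more in both conditions (Adar-202 was lost). With a usage difference over 0.2 required, 2 were left, Srsf2-201 and Srsf3-202, so no gained isoform passed. With at most 5% of exonic bases shared with other genes, 3 were left, both Srsf3 isoforms and Tra2b-206. The number of gained isoforms that are unproductive was 3 by annotated class and 2 by a stop codon more than 50 bases before the last junction, because Srsf2-203 has no annotated coding sequence, and 3 when the stop codon of Srsf2-201 was placed on it. A pseudocount of 1 moved the log2 abundance ratio of Adar-202 from -2.21 to -1.15 and left the other 5 within 1.5-fold. At both ends of the rounding of the fractions, the implied level was lower in BMP2 for all 4 genes. The log2 ratio of Adar then ranged from -0.22 to -0.19. The level was also lower for all 4 from the most used isoform and from each isoform alone. Tra2b and Adar have 1 listed isoform each, so for them these settings repeat the main calculation. For Srsf2 and Srsf3, usage and TPM are tied through the gene's total, so either isoform should give nearly the same level. The single-isoform settings are thus no separate check of the direction. No paired analysis was possible because the values used here are means per condition, and leaving out single libraries could not be run for the same reason.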

Other observations

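The annotated class of an Srsf2 model does not always follow its structure. Srsf2-206 is annotated as protein-coding and Srsf2-202 as a target of nonsense-mediated decay, yet they share all 4 exon junctions, and in both the stop codon lies 217 bases before the last junction. Neither is listed in the table, so any abundance of theirs lies in the 36.6 TPM (vehicle) and 37.2 TPM (BMP2) of Srsf2 isoforms not listed. That remainder therefore cannot be read as protein-coding or as unproductive from the class names.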
